A study of Mus musculus with 50 samples.

Results

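The genes described here are those of the proteasome, taken by name. They are the genes with a non-control probe on the Agilent arrays whose symbol begins with Psma, Psmb, Psmc, Psmd, Psme, Psmf or Psmg, with the symbol read from the RefSeq accession of the probe or, failing that, from its description. This gave 47 genes with 66 probes, of 34656 genes and unnamed probes on the array. Of these, 45 are parts, activators, assembly chaperones or the inhibitor of the proteasome, and Psmc3ip and Psme3ip1 carry such a name but were counted as none of these. Psma8, Psmd1, Psme2 and Psmg4 have no probe under these names.

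The proteasome is the protease that degrades proteins tagged with ubiquitin. Its barrel-shaped core is built of rings of alpha and beta subunits, and 3 of the beta subunits, Psmb5, Psmb6 and Psmb7, cut proteins. The cap (19S) recognises ubiquitin, unfolds the protein with a ring of ATPases and feeds it into the core, whereas the activators open the core without ATP. Immune cells and interferon replace the catalytic subunits by Psmb8, Psmb9 and Psmb10, which makes the immunoproteasome. In neurons, protein degradation by the proteasome is part of synaptic plasticity.

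Hippocampal RNA of 10 male mice, 5 wild type (WT) and 5 carrying a transgene (TG), was hybridized on 10 two-color arrays, with a WT and a TG mouse on each array. WT mice were C57/BL6j. TG mice over-expressed DCLK-short, a constitutively active form of doublecortin-like kinase-1 made by alternative splicing, on the same background, and all mice had been housed individually. Their age and the promoter of the transgene are not given in the sources used here, and no cell type was sorted. Each mouse was on 2 arrays, once in Cy3 and once in Cy5, so that the 10 arrays are not independent of each other. TG was in Cy5 on arrays 1 to 5 and in Cy3 on arrays 6 to 10 as labelled. The study compared microarray platforms by the differences they detect between these groups.

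The labels are in doubt. Directions below are log2 TG over WT as labelled, and they oppose the direction of the study, whose own values of these arrays follow the reverse assignment of the dye orientations. An exchange of arrays 1 to 5 with arrays 6 to 10 turns the sign of every log ratio below, so that counts of higher and lower genes, and of arrays above and below 0, trade places. It also changes which arrays share a mouse, and with it the fits that take shared mice into account. The study found Irgm1, which it names Irgm, and Trem2 higher in TG by quantitative RT-PCR (qRT-PCR). As labelled here, their means were -0.18 (FDR 0.0178) and -0.062 (FDR 0.712). The other genes of the study's qRT-PCR are not compared here. Dclk1, the gene of the transgene, did not settle the doubt about the labels. Its mean log2 ratio over 4 probes was -0.068 ± 0.032 (SE, n = 10 arrays, FDR 0.273), with values from -0.26 to 0.046 (median -0.067), and where these probes lie relative to the transgene is not known here. Between 80.2% and 88.5% of the non-control spots of an array were well above background in both channels. Of the 66 proteasome probes, 63 exceeded the negative controls in both channels of all 10 arrays, and no spot of them was saturated. With 10 arrays, precision is limited by their number.

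At a false discovery rate (FDR) of 0.1 in limma, adjusted over all genes and unnamed probes, 14 of the 47 proteasome genes differed, 13 of them higher and 1 lower in TG as labelled. Over all genes, 4.03% were called higher, 4.12% lower and 8.15% in either direction. The proteasome probes were bright, and calls were more frequent among bright genes. Of the 4527 genes at or above the lower quartile of the mean signal of the proteasome genes, 13.7% were called higher, 10.1% lower and 23.9% in either direction, against 10 higher and 1 lower of the 35 proteasome genes in that range. Among these 35, the share called in either direction was 31.4%. It was not far from that of the 4527 genes and is not read as a result about the proteasome. The fit treats the arrays as independent. With a correlation between arrays that share a mouse and a dye term, 11 proteasome genes were called with mice as labelled, beside 6.21% of all genes, and 5 with mice exchanged, beside 3.42%. The dye term alone gave 16. With 1 value per mouse and 5 mice against 5, limma called 0 of the 47 genes, and 29 of all genes. In that fit, 16 of the 47 had an unadjusted p under 0.05 as labelled, beside 8.17% of all genes. It averaged single-channel intensities with no term for the array, so the pairing of a WT and a TG mouse on an array was not used. The paper found no Agilent genes from intensities unless dye and array were in its model. The part of the unused pairing in the 0 calls was not tested. In whole tissue, fewer cells of a type and less RNA per cell cannot be told apart.

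**Figure D1:**
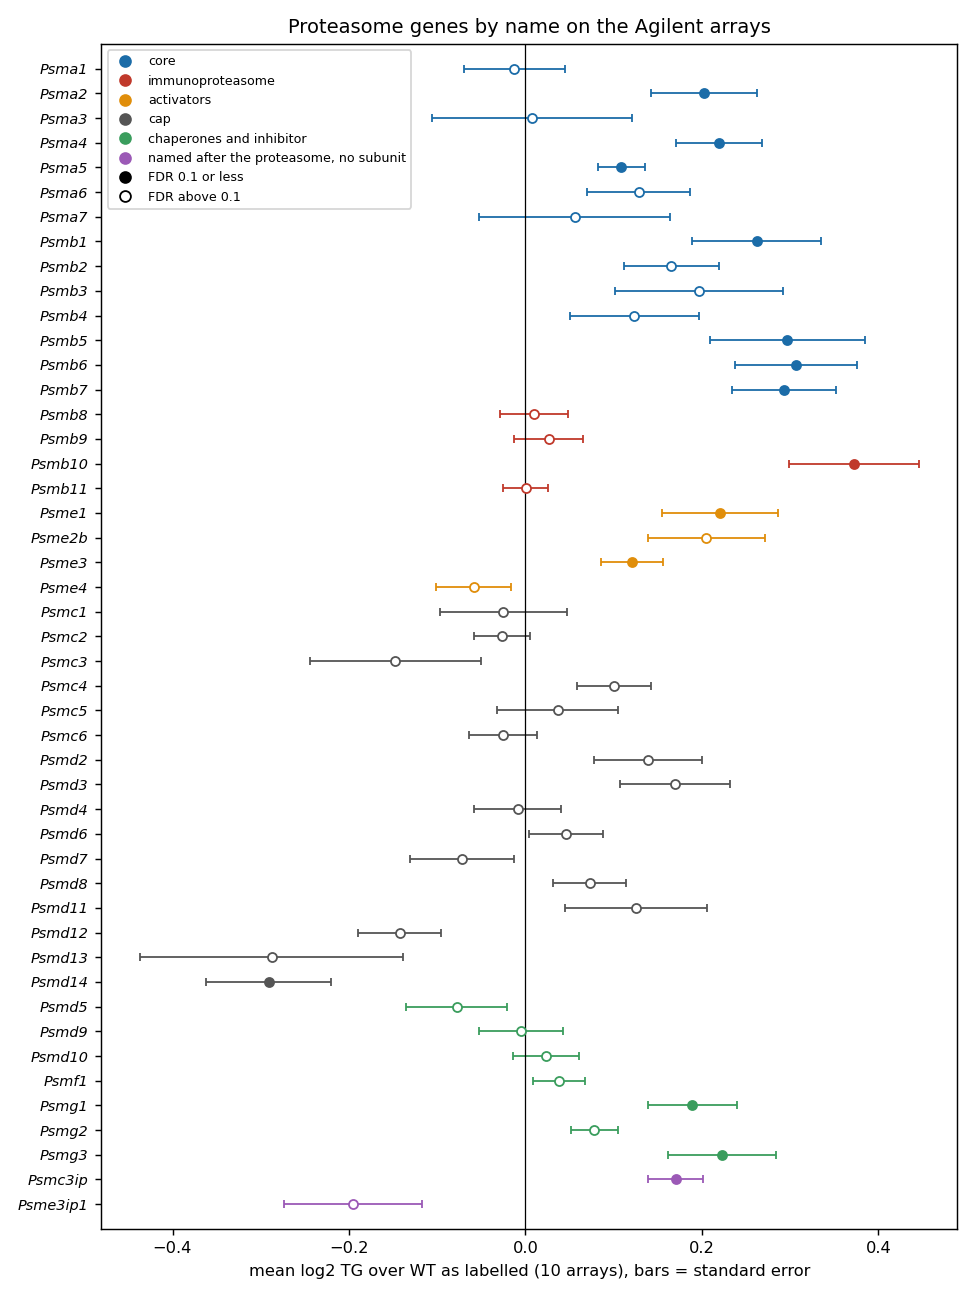
Mean log2 TG over WT as labelled (x axis) of the 47 proteasome genes (y axis) with standard errors over 10 arrays, colored by part of the complex. Filled points passed an FDR of 0.1: 7 of 14 core genes lay to the right of 0 and passed, and 1 of 16 cap genes, Psmd14, lay to the left and passed.

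Of the 14 core genes, 7 were called higher and none lower, beside 4.03% called higher over all genes. Among the genes at or above the lower quartile of the proteasome signal it was 13.7%. That quartile was 8.69 on the log2 scale, and the mean signals of the core genes ran from 9.74 to 11.3. The share among genes as bright as the core was not computed. A positive mean was seen for 13 core genes, and their median log2 ratio was 0.18, beside 0.0034 over all genes. With the shared-mouse correlation and dye term, 6 core genes were called with mice as labelled, beside 6.21% of all genes. With mice exchanged it was 3, beside 3.42%. With 1 value per mouse limma called 0, with 9 at an unadjusted p under 0.05, beside 8.17% of all genes. The median of the 14 genes on an array was above 0 on 8 of 10 arrays and ran from -0.039 to 0.46. All 3 catalytic beta subunits were called, 1 of 4 structural beta subunits and 3 of 7 alpha subunits.

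Psmb5 carries the chymotrypsin-like activity. Its log2 ratio was between -0.14 and 0.78 (median 0.30) and above 0 on 8 of 10 arrays, with a mean of 0.30 ± 0.088 (SE, FDR 0.0848), or 1.23-fold. Psmb6, with the caspase-like activity, was between -0.015 and 0.61 (median 0.32) and above 0 on 9 arrays, with a mean of 0.31 ± 0.069 (FDR 0.0396). Psmb7, with the trypsin-like activity, was between -0.056 and 0.53 (median 0.30) and above 0 on 9 arrays, with a mean of 0.29 ± 0.059 (FDR 0.0271). The means of the 3 genes differed by less than the standard error of any of them. Their high arrays were not the same. Psmb5 was highest on arrays 6 and 9, with 0.78 and 0.69, whereas Psmb7 was at 0.49 and 0.32 there and highest on array 3 with 0.53.

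The bases before the gene start are shown for genes whose ratios the results turn on, since proteasome genes are known to be induced together through an antioxidant response element. The sequences are from RefSeq (GRCm38.p6), 250 bases up to the base before the start, 5′ to 3′ on the strand of the gene. Capitals mark a match to TGACNNNGC, the antioxidant response element, to CCAAT, or to GAAANNGAA, an interferon response element, on either strand.
Psmb5, chr14:54617996-54618245, minus strand: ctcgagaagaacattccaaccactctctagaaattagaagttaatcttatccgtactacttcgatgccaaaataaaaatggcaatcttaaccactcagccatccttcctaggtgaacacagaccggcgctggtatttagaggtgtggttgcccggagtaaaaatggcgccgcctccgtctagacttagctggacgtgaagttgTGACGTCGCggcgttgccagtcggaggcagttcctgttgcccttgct
Psmb6, chr11:70525107-70525356, plus strand: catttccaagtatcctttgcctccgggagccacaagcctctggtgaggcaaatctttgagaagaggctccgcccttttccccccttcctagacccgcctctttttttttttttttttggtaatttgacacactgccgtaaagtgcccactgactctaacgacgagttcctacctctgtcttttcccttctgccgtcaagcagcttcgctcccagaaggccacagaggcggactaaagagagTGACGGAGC
Psmb10, chr8:105938393-105938642, minus strand: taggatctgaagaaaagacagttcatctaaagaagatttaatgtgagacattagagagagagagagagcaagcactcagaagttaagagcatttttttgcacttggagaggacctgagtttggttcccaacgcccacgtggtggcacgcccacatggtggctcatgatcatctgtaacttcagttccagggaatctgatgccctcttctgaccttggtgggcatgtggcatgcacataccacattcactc
Psmd14, chr2:61711444-61711693, plus strand: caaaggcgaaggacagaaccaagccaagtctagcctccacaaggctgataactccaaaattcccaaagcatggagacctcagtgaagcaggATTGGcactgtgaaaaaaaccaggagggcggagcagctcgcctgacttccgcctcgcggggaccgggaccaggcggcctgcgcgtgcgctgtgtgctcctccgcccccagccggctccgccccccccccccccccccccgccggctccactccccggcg

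Psmb5 held TGACNNNGC from 47 to 39 bases before its start and Psmb6 from 9 to 1 bases before its start. Psmb10, the inducible catalytic subunit, held no match to the 3 motifs, and Psmd14, a cap gene, held CCAAT on the opposite strand. Of the 47 genes, 40 had a window in the RefSeq table, and Psmb7 was not among them. TGACNNNGC was found for 5 of the 40 genes (12.5%) beside 10.2% of the 32851 windows of all genes, with 2 of 11 core and 2 of 13 cap genes. CCAAT was found for 16 genes (40.0%) beside 33.8% of all windows, and GAAANNGAA for 3 genes (7.5%) beside 7.13%. The shares of the proteasome genes were thus close to those of all windows, and a match is a description of the letters and not of a bound site.

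Among the structural subunits of the beta ring, Psmb1 was called. Its log2 ratio was between -0.22 and 0.65 (median 0.32), with a mean of 0.26 ± 0.073 (FDR 0.0695), above 0 on 8 arrays. Psmb2, Psmb3 and Psmb4 had means of 0.17, 0.20 and 0.12 and did not pass, with FDR values of 0.11, 0.292 and 0.416. All 4 means were positive.

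The alpha ring forms the gate of the core. Psma4 was above 0 on 9 arrays, between -0.10 and 0.47 (median 0.22), with a mean of 0.22 ± 0.049 (FDR 0.0366). Psma2 was above 0 on 8 arrays, between -0.097 and 0.53 (median 0.17), with a mean of 0.20 ± 0.060 (FDR 0.0839). Psma5 had the smallest mean of the called core genes, 0.11 ± 0.027 (FDR 0.0489), and was above 0 on all 10 arrays, from 0.013 to 0.27 (median 0.087). The other 4 alpha subunits did not pass. Psma6 and Psma7 had means of 0.13 and 0.056, and Psma1 and Psma3 were near 0 with means of -0.012 and 0.0073. Psma3 and Psma7 spread most widely over the arrays, with SDs of 0.40 and 0.38, and for Psma3 the scanner software had flagged 5 of 10 spots as outliers.

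**Figure D2:**
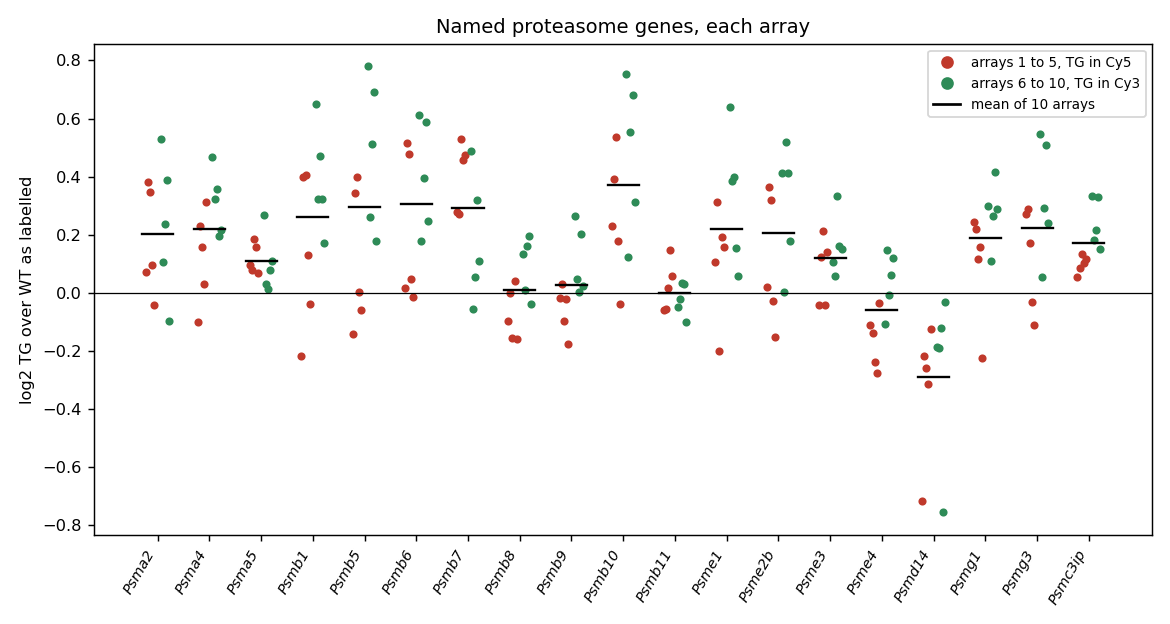
Log2 TG over WT as labelled (y axis) of 19 named proteasome genes (x axis) on each of 10 arrays, with the arrays that carry TG in Cy5 in red, those that carry TG in Cy3 in green and the mean as a line. Psma5 and Psmc3ip lay above 0 and Psmd14 below 0 on all 10 arrays, and Psmb8, Psmb9 and Psmb11 scattered around 0.

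Of the immunoproteasome genes, Psmb10 was called and the others were near 0. Psmb10, which takes the place of Psmb7, had the largest mean of the 47 genes, 0.37 ± 0.073 (FDR 0.0258), or 1.29-fold. Its values were between -0.039 and 0.76 (median 0.35) and above 0 on 9 arrays. Psmb8, which replaces Psmb5, was between -0.16 and 0.20 with a mean of 0.0093 ± 0.039 (FDR 0.95). Psmb9, which replaces Psmb6, was between -0.18 and 0.27 with a mean of 0.026 ± 0.039 (FDR 0.828). Psmb11, a subunit of the thymus, had a mean of 0.00017 ± 0.026 (FDR 0.999), and 10 of its 20 spots were not well above background.

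Of 12 measured genes of the interferon response and antigen presentation, 2 were called lower and none higher. Over all genes, 4.12% were called lower and 4.03% higher. Irgm1, an interferon-induced GTPase, had a mean of -0.18 ± 0.032 (FDR 0.0178), below 0 on 9 arrays. The study, which names it Irgm, gives it as higher in TG on each of its platforms and by qRT-PCR. The sign as labelled is thus the opposite of the study's for this gene. Irf1, a transcription factor that induces immunoproteasome genes, had a mean of -0.089 ± 0.021 (FDR 0.045), below 0 on 9 arrays. With the shared-mouse correlation and dye term, Irgm1 and Irf1 passed with mice as labelled (FDR 0.0315 and 0.0609) and exchanged (0.0495 and 0.0946). With 1 value per mouse neither passed (FDR 0.401 and 0.502 as labelled). Psmb10 was therefore higher, as labelled, while these genes were lower and Psmb8 and Psmb9 did not pass. Among 12 microglia markers, Tmem119 was called higher, with a mean of 0.13 (FDR 0.0573), and P2ry12 and Itgam lower, with means of -0.29 and -0.15 (FDR 0.0327 and 0.0885). In the shared-mouse fit with dye term, P2ry12 passed in both assignments of mice (FDR 0.0606 and 0.0885). Tmem119 passed as labelled only (0.0936, and 0.129 exchanged), and Itgam in neither (0.13 and 0.188). With 1 value per mouse, 0 microglia markers were called. The median of the microglia markers on an array ran from -0.23 to 0.21. Of 6 endothelium markers, Cldn5 was called lower with a mean of -0.25 (FDR 0.0387). It passed the shared-mouse fit with dye term in both assignments (FDR 0.0581 and 0.0836) but not with 1 value per mouse (FDR 0.457 as labelled). Limma called none of the 6 choroid plexus markers, with 0 at an unadjusted p under 0.05, and none of the 8 hippocampal neuron markers, with 3 at that p. Over all 34656 genes and unnamed probes, 6608 were at that p. The part of other cell types in the proteasome ratios was not tested.

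Among the activators, Psme1 and Psme3 were called higher with arrays taken as independent. Neither passed with the shared-mouse correlation and dye term (FDR 0.11 and 0.105 with mice as labelled, 0.135 and 0.133 with mice exchanged), and with 1 value per mouse limma gave 0 activators also at an unadjusted p under 0.05. Psme1, a subunit of the interferon-inducible activator PA28, was between -0.20 and 0.64 (median 0.17) and above 0 on 9 arrays, with a mean of 0.22 ± 0.066 (FDR 0.0858). Psme2b is the partner of Psme1 by the name in the files, but its probes lie beside Psme1 on chromosome 14, where the RefSeq table places Psme2, so that the copy is uncertain. It had a mean of 0.20 ± 0.066 (FDR 0.109), above 0 on 8 arrays between -0.15 and 0.52. Psme3, the nuclear activator PA28 gamma, was between -0.042 and 0.33 (median 0.13), with a mean of 0.12 ± 0.035 (FDR 0.08). Psme4, the activator PA200, had a mean of -0.059 ± 0.043 (FDR 0.542), and 10 of its 20 spots were not well above background.

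Psme3 was the one proteasome gene that an accession named on the ABI arrays, a one-color platform with 1 mouse per array. By their numbers the TG mice were those of the Agilent arrays, whereas the WT mice were in part others, since ABI has a WT2 and no WT6 and Agilent a WT6 and no WT2. Its normalized log2 signal was 13.51, 13.47, 13.35, 13.73 and 13.68 in WT and 13.70, 14.13, 13.70, 13.50 and 13.95 in TG. The groups overlapped, and the mean was 13.55 ± 0.16 (SD, n = 5) in WT and 13.80 ± 0.25 (SD, n = 5) in TG. The difference of 0.25 ± 0.16 (SE) did not pass in limma (unadjusted p = 0.16, FDR 1), where 1 of 33012 probes, 0.00303%, was called. The paper reports that ABI arrays came in batches run on different days, whose signal distributions differed. The fit held no batch term.

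Of the 16 cap genes, 1 was called lower and none higher, beside 4.12% lower and 4.03% higher over all genes. Among genes at or above the lower quartile of the proteasome signal, 10.1% were called lower and 13.7% higher. The count of the cap is not read as a result about it. Means were positive for 7 cap genes and negative for 9. The median was -0.017 after loess and 0.092 when arrays were centred on their median instead. The 6 ATPases of the base, Psmc1 to Psmc6, had means between -0.15 (Psmc3) and 0.10 (Psmc4). None of them passed in limma (FDR 0.21 or more), with 1 at an unadjusted p under 0.05. Over all 34656 genes and unnamed probes, 6608 were at that p. The ubiquitin receptor Psmd4 was near 0, at -0.0090, and the scaffold Psmd2 had a mean of 0.14 (FDR 0.24). Of the 8 lid genes, 4 had a positive mean, led by Psmd3 with 0.17 (FDR 0.156), and 4 a negative one.

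The difference between the median of the core and the median of the cap on an array had a mean of 0.21 and an SD of 0.22, and was above 0 on 8 of 10 arrays, between -0.16 and 0.47. It was below 0 on arrays 1 and 5. No test was run on it, since the genes were grouped with earlier results known.

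Psmd14, the deubiquitinase of the lid that removes ubiquitin chains before degradation, was the 1 gene called lower. Its log2 ratio was below 0 on all 10 arrays, between -0.76 and -0.032 (median -0.20), with a mean of -0.29 ± 0.071 (FDR 0.0478). The values of arrays 1 and 9, -0.72 and -0.76, lay apart from the other 8, which were -0.31 or nearer to 0. Without both of these arrays, which share mouse TG4 as labelled, the mean was -0.18 (FDR 0.0338). With mice as labelled, the call was lost without both arrays of WT3 (FDR 0.157), WT4 (0.147), WT5 (0.141), TG2 (0.114) or TG3 (0.114). It was also lost with median centring (Psmd14, log2 ratio -0.19, FDR 0.506), with the shared-mouse correlation, dye term and mice exchanged (FDR 0.113) and with 1 value per mouse (FDR 0.444). Its probes differed. The probe nearer the 3′ end had a mean of -0.13 ± 0.038 (FDR 0.0785 over probes) and the one nearer the 5′ end -0.45 ± 0.15 (FDR 0.125). On arrays 1 and 9, the 5′ probe was at -1.29 and -1.55 and the 3′ probe at -0.14 and 0.036.

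The same arrays stood apart for other genes with several probes. Over 3425 genes with probes at least 500 bases apart in the coordinates of the files, the log2 ratio of the 5′ probe minus that of the 3′ probe had a median of -0.14 on array 1 and -0.12 on array 9, and between -0.033 and 0.069 on the other 8 arrays. Its SD over genes was 0.56 and 0.62 on arrays 1 and 9 and at most 0.28 on the others. Of 11 proteasome genes with such probes, Psmd12, a lid scaffold, differed by -1.13 and -1.49 on the 2 arrays, Psme3ip1 by -1.52 and -1.64 and the ATPase Psmc5 by -0.71 and -1.01. On the same arrays, Psma4, Psmb11, Psmd9, Psme4 and Psmf1 differed by -0.22 to 0.11, Psmb3 by -0.057 and 0.39 and Psmd2 by 0.003 and -0.65. What sets the probes apart on these arrays was not tested, and neither was their part in the mean of Psmd14 and of the cap. Psmd13, another lid gene with a single probe, was at -0.81 and -1.46 on arrays 1 and 9, and its mean of -0.29 ± 0.15 did not pass (FDR 0.335). Arrays 1 and 9 correlated over all genes with r = 0.749 after removal of the mean of their dye orientation. Without them, the median of the core was 0.17 and that of the cap 0.030, and 8 proteasome genes were called, 7 higher and 1 lower.

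**Figure D3:**
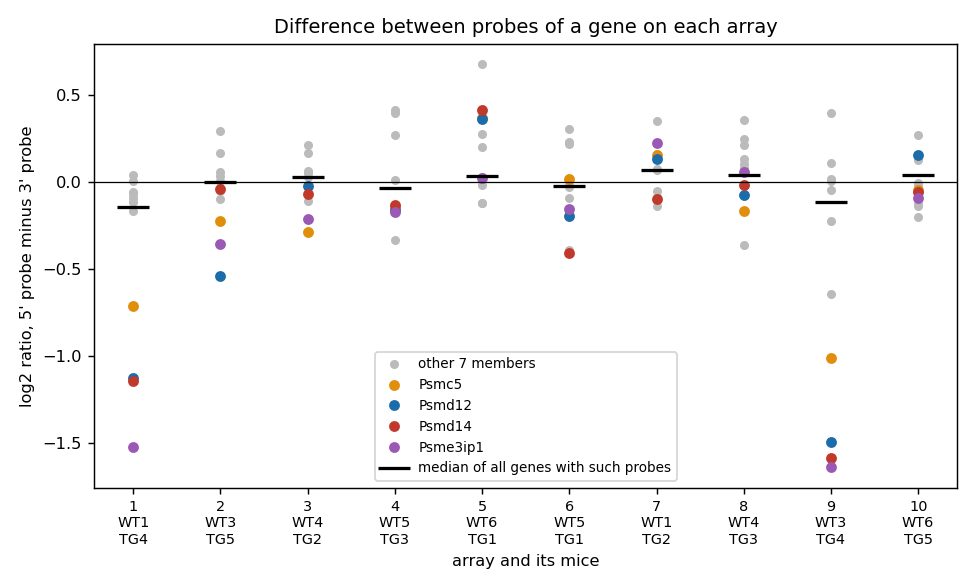
Log2 ratio of the 5′ probe minus that of the 3′ probe (y axis) of 11 proteasome genes on each array (x axis, with its mice as labelled), with the median of all 3425 genes as a bar. Psmd12, Psmd14, Psme3ip1 and Psmc5 lay between -0.71 and -1.64 on arrays 1 and 9.

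Of the 3 chaperones that assemble the core, 2 were called higher, beside 4.03% of all genes. Both passed with the shared-mouse correlation and dye term with mice as labelled, beside 6.21% of all genes. With mice exchanged neither passed (FDR 0.102 for Psmg1 and 0.104 for Psmg3), beside 3.42% of all genes called. Psmg1 had a mean of 0.19 ± 0.050 (FDR 0.0616) and was above 0 on 9 arrays, between -0.22 and 0.41. Psmg3 had a mean of 0.22 ± 0.061 (FDR 0.0679) and was above 0 on 8 arrays, between -0.11 and 0.55. Psmg2 was above 0 on 9 arrays with a mean of 0.078 ± 0.027 and did not pass (FDR 0.127). Limma called none of the chaperones of the base, Psmd5, Psmd9 and Psmd10, with means between -0.078 and 0.023 and 0 at an unadjusted p under 0.05, nor the inhibitor Psmf1, with a mean of 0.038 (FDR 0.584). Psmc3ip, which acts in meiotic recombination, had a mean of 0.17 ± 0.031 (FDR 0.0199) and was above 0 on all 10 arrays. Psme3ip1 had a mean of -0.20 ± 0.078 (FDR 0.194).

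Of the 7 measured parts and partners of the proteasome that carry another name, 2 were called higher, beside 4.03% of all genes. Pomp, the maturation factor of the core, had a mean of 0.45 ± 0.11 (FDR 0.0489) and was above 0 on 8 arrays. Sem1, a small subunit of the lid, had a mean of 0.57 ± 0.15 (FDR 0.0527) and was above 0 on 9 arrays. With the shared-mouse correlation and dye term, Pomp passed with mice as labelled and exchanged (FDR 0.0816 and 0.0955). Sem1 passed as labelled only (0.0871, and 0.104 exchanged). With 1 value per mouse as labelled, neither Pomp nor Sem1 passed (FDR 0.303 and 0.339). Usp14, a deubiquitinase bound to the cap, had a mean of -0.32 ± 0.11 and did not pass (FDR 0.134). Limma called none of the 4 genes of the transcription factors of the proteasome, with 1 at an unadjusted p under 0.05. It called none of the 8 genes of shuttles and unfolding, with 4 at that p. Over all 34656 genes and unnamed probes, 6608 were at that p.

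The core did not move alone on these arrays. The median of its 14 genes was -0.031, 0.27, 0.31, 0.064 and -0.039 on arrays 1 to 5 and 0.46, 0.079, 0.35, 0.32 and 0.14 on arrays 6 to 10. The median of 79 genes of cytosolic ribosomal proteins was 0.050, 0.81, 0.88, 0.072 and -0.17 on arrays 1 to 5 and 0.69, 0.066, 0.74, 0.82 and 0.077 on arrays 6 to 10. The 5 arrays with the largest core median were the same as the 5 with the largest ribosomal median. They were also the 5 with the largest median of 74 genes of the respiratory chain, which ran from -0.13 to 0.91. Of the ribosomal genes 34 and of the respiratory chain genes 39 were called higher in TG as labelled, beside 4.03% of all genes. None was called lower, and the medians were 0.41 and 0.46. With the shared-mouse correlation and dye term, 12 and 20 were called with mice as labelled, beside 6.21% of all genes. With mice exchanged it was 7 and 10, beside 3.42%. With 1 value per mouse limma called 0 and 0, with 54 and 48 at an unadjusted p under 0.05, beside 8.17% of all genes. As labelled, these arrays hold WT3 and WT4 on both of their arrays and WT5 on 1 of its 2. What these gene groups share was not tested.

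**Figure D4:**
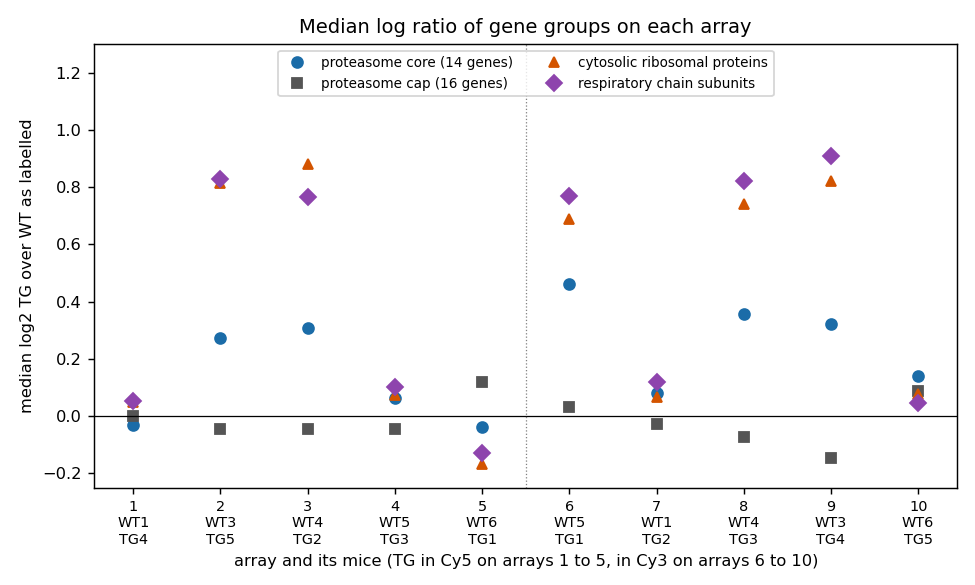
Median log2 TG over WT as labelled (y axis) of the 14 core genes, the 16 cap genes, 79 ribosomal protein genes and 74 respiratory chain genes on each array (x axis, with its mice). The core medians of arrays 2, 3, 6, 8 and 9, at 0.27 to 0.46, stand beside ribosomal medians of 0.69 to 0.88, and the cap medians stay between -0.15 and 0.12 on all arrays.

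The 5 genes called with the shared-mouse correlation, the dye term and mice exchanged were Psma4, Psmb6, Psmb7, Psmb10 and Psmc3ip. With mice as labelled, leaving out both arrays of WT3 or of WT4 left 1 called gene in each case, Psmc3ip and Psmb7. Leaving out both arrays of any other mouse left between 4 and 16. With mice exchanged, other arrays share a mouse, and leaving those out together was not run. Without WT3 and without WT4, the core median was 0.12 and 0.14.

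**Figure D5:**
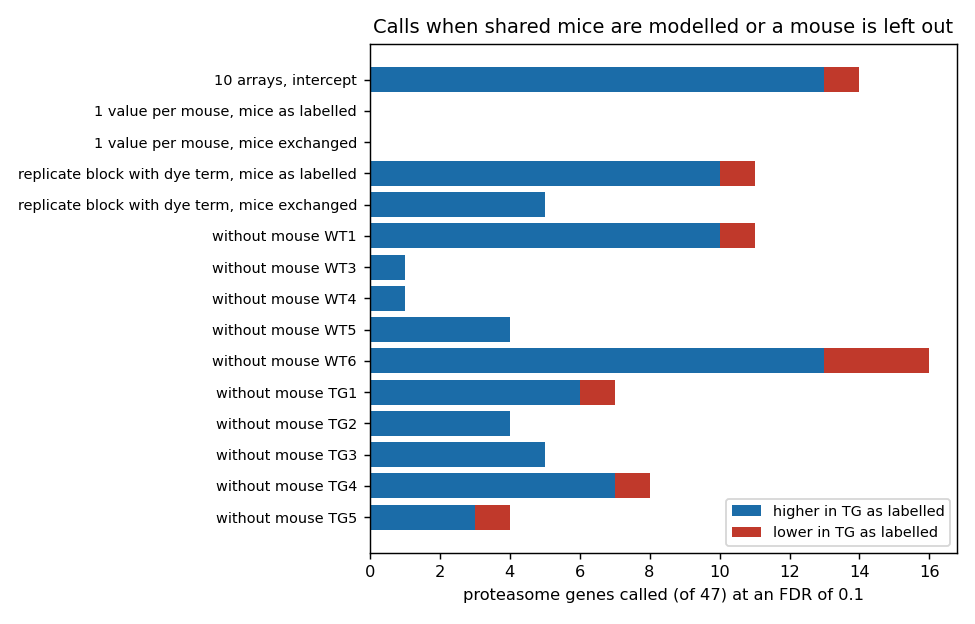
Number of proteasome genes called at an FDR of 0.1 (x axis), higher and lower in TG as labelled, with all 10 arrays, with shared mice in the model and without both arrays of each mouse (y axis). The number was 14 with all arrays, 0 with 1 value per mouse and 1 without WT3 or WT4, with left-out mice as labelled.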

How the data were processed

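The hippocampus of WT and TG mice, 5 of each per platform, was measured on 10 Agilent and 10 ABI arrays, with WT1 and WT3 to WT6 on Agilent and WT1 to WT5 on ABI. As the file headers tell, the authors obtained spot intensities in Cy3 and Cy5 with Feature Extraction 8.5.1.1 and deposited them without normalization, with local backgrounds, flags and log10 ratios that the software had corrected for background and dye. The authors deposited raw ABI signals of 33012 probes. Agilent log2 ratios of mean intensities were loess normalized within each array with no background correction and no filter, averaged per probe and gene, turned to TG over WT as labelled, and tested against 0 with limma 3.58.1 in R 4.3.3 (intercept, empirical Bayes, Benjamini-Hochberg over 34656 genes and unnamed probes, FDR 0.1). ABI signals were quantile normalized on the log2 scale and tested for the genotype with limma; vsn, used in the study, was not at hand. Present probes exceeded the 95th percentile of 314 negative controls. The coordinates of the files name no build. Arrays shared a mouse in pairs, so a correlation common to all genes was estimated for them. In another fit, with no array term, channels were averaged per mouse. Each array was a slide of its own and all were scanned together, so no slide or scan block was possible. The scripts were tested on simulated data.

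The genes and lists were chosen with earlier results of these data known. Named with values are members past the FDR, all immunoproteasome, catalytic beta and activator genes, members with probes of opposite sign of which 1 was called (none), and list genes past the FDR; other members were named after their values were seen. Results of some list genes are not reported here. Arrays of the other platforms (AFF, ILL, LGTC) were not used here. Alternatives covered background correction, normalization, pixel summary, the deposited log10 ratios, dim probes, scaling, shared mice, dye, robust regression, FDR, probe level and leaving out arrays or mice. The comparison with bright genes, the ribosomal and respiratory chain genes and the probe positions were added after seeing the data. So were the dye term in the shared-mouse fit and the omission of outlier spots.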

Additional observations from a re-analysis of the deposited data

Results flagged for a closer look

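Among the 47 genes, the log2 ratio of 1 array lay far from the other 9 in 2 cases, and chance sets about 5% of groups apart in this way. Psmf1, the proteasome inhibitor, was at 0.243 on array 3 and between -0.062 and 0.10 on the others. Psmg1, the core chaperone, was at -0.223 on array 5 and between 0.109 and 0.415 on the others.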

How the results depend on the processing

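All 14 called genes kept their sign under the alternatives run at the level of genes that can change it (background, normalization, pixel summary, dim or outlier spots, scaling, robust regression, left-out arrays and mice). The fits with a block, a dye term or 1 value per mouse return the same mean by construction and show nothing about its sign. The number called (14, with 13 higher and 1 lower) was 8 with 7 higher for the deposited log10 ratios, and 7 with 6 higher at an FDR of 0.05. Lower calls were 0 with median centring, 2 with median pixels and 2 with robust regression. The median of the cap was 0.0918 with median centring, beside 0.291 for the core. The cause of these shifts was not tested. When arrays, or mice as labelled, were left out in turn, the number called ranged from 1 to 16. The higher calls ranged from 1 to 14 and the lower calls from 0 to 3. The medians ranged from 0.118 to 0.222 for the core, from -0.0449 to 0.0304 for the cap, from 0.117 to 0.182 for the activators, from -0.00401 to 0.044 for the immunoproteasome and from 0.0117 to 0.0582 for the chaperones and inhibitor, and the ABI difference of Psme3 from 0.161 to 0.322. Single arrays mattered: without array 6 the number was 6, without arrays 2, 3, 8 or 9 in turn it was 7.

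The numbers of WT and TG mice are names and pair no mice, so the replicate block was the mouse that 2 arrays share. Without a dye term, the estimated correlation was negative, -0.16 with mice as labelled and -0.08 with mice exchanged, and the block gave 22 calls with 3 lower and 18 calls with 2 lower. Arrays of 1 mouse always carry opposite dyes, and with a dye term, added after seeing the data, the correlations were 0.08 and 0.18. The dye term alone gave 16 calls, and with the block there were 11 calls with mice as labelled and 5 calls, 5 higher and 0 lower, with mice exchanged. With 1 value per mouse, limma made 0 calls in both assignments, 0 higher and 0 lower, with 16 genes at an unadjusted p under 0.05 as labelled and 14 with mice exchanged. Probes near background limit Psmb11 and Psme4, and the probes of Psmb8 and Psmb9 were dim.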
